A study of Mus musculus with 17 samples.

Results

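Chaperones and protein-folding enzymes were read out in myeloid cells sorted from 4T1-luc mammary tumors and from bone marrow. Members were the genes whose symbol starts with Hsp, Dnaja, Dnajb, Dnajc, Cct, Pdia or Fkbp followed by a member number or letter, the BAG family, and Calr, Canx, P4hb and Tcp1, with Hspa1a left out. This gave 87 of the 10207 genes with a symbol, of which 48 act in the cytosol or nucleus, 23 in the endoplasmic reticulum (ER), 8 in the mitochondrion and 8 elsewhere or at a site not assigned. Of the 87, 71 passed the filter on low counts (38 cytosolic, 18 ER, 8 mitochondrial and 7 others), and all tests refer to these 71.

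All mice were female BALB/c. TAM are CD11b+ Gr1- F4/80+ cells sorted from tumors that grew from 100000 injected 4T1-luc cells, a line of mouse mammary carcinoma that carries luciferase, to a size of 1 cm in the mammary fat pad (labelled 8 weeks of age, 3 libraries). BMDM_T are CD11b+ Gr+ F4/80low marrow cells, labelled as monocytes, of tumor-bearing mice (8 weeks, 4 libraries). BMDM_H are cells of the same marrow gate from healthy mice without tumor cells (labelled 12 weeks, 4 libraries), and the series design nevertheless describes healthy and tumor-bearing animals as matched in age. Tumors were digested with collagenase and DNase while marrow was flushed and treated with red cell lysis buffer, so tissue, cell type and preparation cannot be told apart in a comparison of TAM with marrow, nor tumor and age in BMDM_T against BMDM_H. Libraries covered the 3' end of mRNA. Their totals over the deposited genes were 1748338 to 3747929 counts in TAM, 931278 to 1218977 in BMDM_T and 387940 to 1286844 in BMDM_H, with the lowest totals in BMDM_H replicates 3 and 4. Nothing states that libraries of a group came from separate mice, and the p-values below cover the spread of these samples alone, which may be technical.

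Levels are CPM, the counts scaled to a common library size over the 7518 tested genes with factors from the trimmed mean of M-values (TMM). Fold changes are log2 values with their standard error (SE). Means carry the SD over 3 TAM, 4 BMDM_T or 4 BMDM_H libraries. Adjusted p-values come from edgeR's quasi-likelihood test with Benjamini-Hochberg adjustment over all 7518 tested genes, called under 0.05. The gates hold different cells. A list of 8 measured macrophage markers summed to 27267 to 34365 CPM in TAM, against 473 to 715 CPM in BMDM_T and 1008 to 1837 CPM in BMDM_H. A list of 10 neutrophil markers summed to 329 to 557 CPM in TAM, against 162096 to 195912 CPM in BMDM_T and 135793 to 207073 CPM in BMDM_H. A list of 6 monocyte markers summed to 496 to 556 CPM in TAM, against 1131 to 1669 CPM in BMDM_T and 1804 to 3305 CPM in BMDM_H, so neutrophil markers far exceeded monocyte markers in the cells labelled as monocytes. Ly6c2 made up most of the marrow sums, averaging 7.00 ± 2.41 CPM in TAM and 1037 ± 216 CPM in BMDM_T, while 3 of the 5 tested monocyte markers (Ccr2, Cx3cr1 and Ms4a4c) were higher in TAM than in BMDM_T. A list of 8 epithelial and tumor markers summed to 77.8 to 117 CPM in TAM, against 21.5 to 46.2 CPM in BMDM_T and 33.4 to 80.7 CPM in BMDM_H. The part of these differences in the results on chaperones was not tested. In such bulk samples, fewer cells of a type and less RNA per cell cannot be told apart.

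As background, newly made polypeptides fold with the help of chaperones that differ by compartment. In the ER, the HSP70 protein BiP (Hspa5), the HSP90 protein GRP94 (Hsp90b1), the lectins calreticulin and calnexin and the protein disulfide isomerases serve secreted and membrane proteins, and the unfolded protein response raises their genes when unfolded protein accumulates. In the cytosol, HSP70, HSP90 and the ring-shaped chaperonin TRiC (CCT) do this work, and heat shock factor 1 drives the heat-inducible members. In the mitochondrion, mortalin (Hspa9) and the HSP60 and HSP10 chaperonin (Hspd1, Hspe1) fold imported proteins. Macrophages secrete and take up much protein and carry an extensive ER, while mature neutrophils carry little.

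Promoter elements bind the factors named above, and they are shown here because 6 ER members carry one that no matched window of a cytosolic or mitochondrial member held. RefSeq promoter windows on GRCm38.p6, from 250 bases before to 50 after a start, were matched for 74 of the 87 members, with 21 of the 23 ER members among them. The ER stress response element, searched on both strands as CCAAT followed by CCACG with 9 free bases between them, lay in 6 of 24 windows of ER members (25.0%), in 0 of 54 windows of cytosolic members and in 0 of 6 windows of mitochondrial members, against 39 of 32817 windows of all genes (0.119%). The 6 genes were Calr, Canx, Dnajc3, Hsp90b1, Hspa5 and Pdia6, with 2 elements in Hsp90b1. Each element is given 5′ to 3′ on the strand on which CCAAT comes first, with 5 flanking bases on either side and the fixed letters of the motif in capitals. They lie at chr8:84847070-84847098 (plus strand) in Calr, chr11:50325795-50325823 (minus) in Canx, chr14:118937822-118937850 (plus) in Dnajc3, chr10:86705633-86705661 (minus) and chr10:86705528-86705556 (plus) in Hsp90b1, chr2:34772020-34772048 (plus) in Hspa5 and chr12:17266486-17266514 (plus) in Pdia6.
Calr: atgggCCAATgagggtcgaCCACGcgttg
Canx: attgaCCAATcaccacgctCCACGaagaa
Dnajc3: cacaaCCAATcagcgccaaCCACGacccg
Hsp90b1, farther from the start: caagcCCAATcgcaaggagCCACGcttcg
Hsp90b1, nearer to the start: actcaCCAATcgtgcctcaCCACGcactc
Hspa5: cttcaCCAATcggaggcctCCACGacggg
Pdia6: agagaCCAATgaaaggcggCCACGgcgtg
All 7 matches lay before the RefSeq start, the one in Hspa5 from base -65 to base -47. A second form of the element, ATTGG and CCACG with 1 free base between them, lay in the window of Dnajb11, 1 of 24 ER windows (4.17%) against 12 of 32817 windows of all genes (0.0366%). The core TGACGTGG was in 0 of 24 ER windows, against 222 of 32817 (0.676%).

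A heat shock element of 3 units, searched on both strands as GAA, TTC and GAA with 2 free bases between units, was shared by the head-to-head mitochondrial chaperonin genes Hspd1 and Hspe1. It lay in 2 of 6 windows of mitochondrial members, in 4 of 54 windows of cytosolic members (7.41%, in Dnajb6 and Hsph1), in 0 of 24 windows of ER members and in 198 of 32817 windows of all genes (0.603%). The windows of Dnajb6 overlap and hold the same match, as do those of Hsph1, so the 4 cytosolic windows are not separate matches. The Hspd1 and Hspe1 windows hold the same stretch of DNA, given below on the plus strand at chr1:55088054-55088081 with the units of overlapping matches in capitals. A match is a stretch of letters in a window and no measure of binding.
Hspd1 and Hspe1: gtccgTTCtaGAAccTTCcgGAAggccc

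Chaperone transcripts took up more of the TAM libraries. Summed over the 87 members, they reached 13094 ± 355 CPM in TAM, against 7088 ± 510.3 CPM in BMDM_T and 6314 ± 447 CPM in BMDM_H. The ER sum was 6589 ± 399 CPM in TAM, 2428 ± 92.1 CPM in BMDM_T and 1924 ± 232 CPM in BMDM_H. In both sums the lowest TAM library lay above the highest marrow library. Most of the ER sum came from Calr, P4hb and Pdia6. They averaged 2069, 1968 and 760 CPM in TAM, against 666, 533 and 233 CPM in BMDM_T and 401, 439 and 193 CPM in BMDM_H. The cytosolic sum was 5241 ± 253 CPM in TAM, 3733 ± 365 CPM in BMDM_T and 3435 ± 327 CPM in BMDM_H. The mitochondrial sum was 763 ± 71.1 CPM in TAM, 349 ± 74.0 CPM in BMDM_T and 345 ± 48.7 CPM in BMDM_H. These sums did not overlap between TAM and marrow either.

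**Figure D1:**
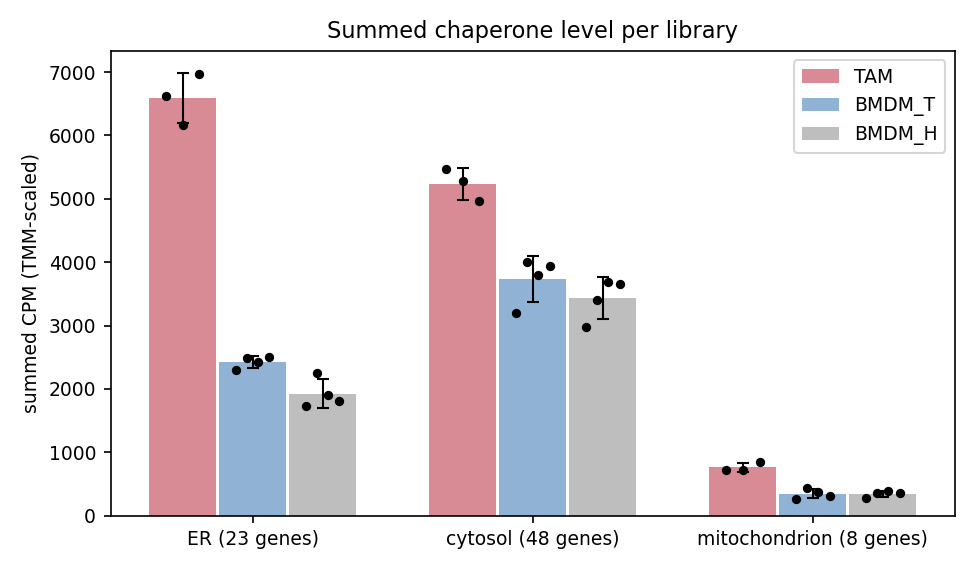
Summed TMM-scaled CPM (y axis) of the ER, cytosolic and mitochondrial members in TAM, BMDM_T and BMDM_H. Bars are group means, error bars the SD and points single libraries. ER sums were 6172 to 6968 CPM in TAM, 2299 to 2497 CPM in BMDM_T and 1727 to 2255 CPM in BMDM_H. Calr, P4hb and Pdia6 made up most of the mean ER sum in each group.

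Gene by gene, TAM against BMDM_T gave 39 members higher and 6 lower of the 71 tested (63.4% called), where 58.9% of all 7518 genes were called, so the share called was near that of all genes. The directions were uneven: 54.9% of tested members were higher and 8.45% lower, against 30.1% higher and 28.7% lower over all genes. TAM against BMDM_H, which uses the same TAM libraries, gave 38 higher and 6 lower (62.0% called, against 56.3% of all genes, 28.0% higher and 28.3% lower). The median log2 fold change of tested members was 0.71 over BMDM_T and 0.76 over BMDM_H, against 0.03 and 0.02 over all tested genes. Of the called members, 9 in the first comparison and 7 in the second had a lower group that averaged under the filter level of 8.6 CPM. With scaling by total counts alone, the split of calls over all genes in TAM against BMDM_T was 2622 higher and 1849 lower in place of 2266 and 2160, and the median of all genes was 0.18.

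**Figure D2:**
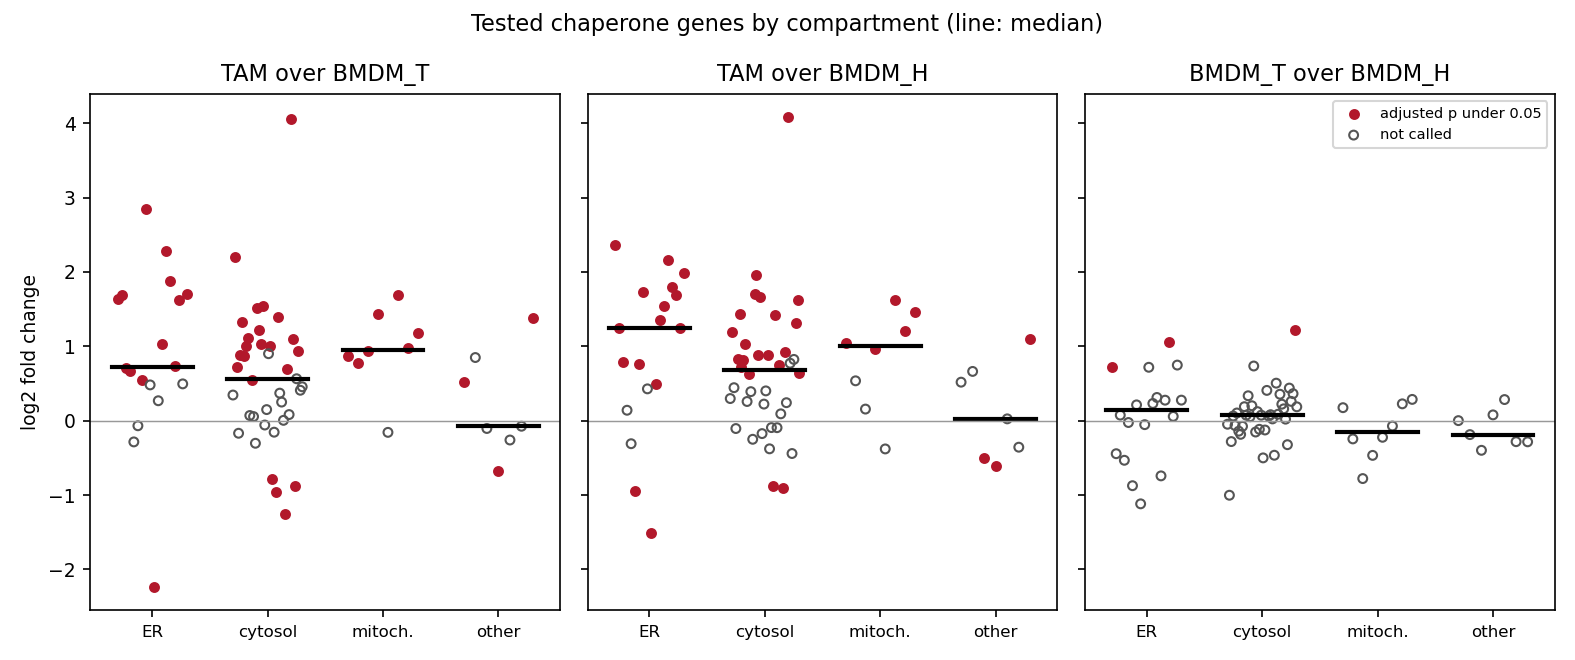
Log2 fold changes (y axis) of the 71 tested members by compartment for TAM over BMDM_T, TAM over BMDM_H and BMDM_T over BMDM_H. Each point is 1 gene, filled where the adjusted p was under 0.05, and lines are medians. ER medians were 0.72 over BMDM_T and 1.24 over BMDM_H in TAM, and cytosolic medians 0.56 and 0.68.

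The ER members were higher in TAM across lectins, disulfide isomerases and both large heat shock proteins, while single J-domain proteins and immunophilins went their own way. Of 18 tested ER members, 12 were higher and 1 lower in TAM than in BMDM_T (72.2% called, where 58.9% of all genes were called and 30.1% were higher), and 13 were higher and 2 lower in TAM than in BMDM_H (83.3% called, where 56.3% of all genes were called and 28.0% were higher). Of the 6 with the ER stress response element printed above, 5 were higher in TAM in each comparison, and the other, Dnajc3, was not called. Of the 12 tested ER members with a promoter window and no such element, 7 were higher and 1 lower in TAM than in BMDM_T, and 8 higher and 2 lower in TAM than in BMDM_H. No test was made of a difference between those 2 sets.

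The lectin calreticulin binds monoglucosylated glycoproteins and stores calcium in the ER lumen. Calr had 1966, 1866 and 2376 CPM in TAM, against 729, 663, 584 and 687 CPM in BMDM_T and 348, 530.0, 361 and 367 CPM in BMDM_H (chr8:84841850-84846934, minus strand, mm10). All TAM libraries lay above all marrow libraries. Its log2 fold change was 1.64 ± 0.18 (adjusted p = 1.36e-07) over BMDM_T and 2.36 ± 0.18 (adjusted p = 1.07e-09) over BMDM_H. Its membrane-bound relative calnexin had few counts. The libraries cover the 3' end and their annotation is not given in the sources used here, so its level beside Calr is uncertain. Canx had 27.2, 28.6 and 26.9 CPM in TAM, against 0, 14.3, 12.7 and 6.31 CPM in BMDM_T and 11.1, 13.7, 7.44 and 13.0 CPM in BMDM_H, with 0 counts in 1 BMDM_T library. Its log2 fold change was 1.69 ± 0.41 (adjusted p = 0.00152) over BMDM_T and 1.25 ± 0.41 (adjusted p = 0.0144) over BMDM_H, without overlap of TAM and marrow, the second call being lost without BMDM_H replicates 3 and 4 (adjusted p = 0.0651).

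Protein disulfide isomerases form and reshuffle disulfide bonds, and 4 of 5 were higher in TAM than in BMDM_T and 5 of 5 than in BMDM_H, where 30.1% and 28.0% of all genes were higher. The 5 include Pdia5, which passed the filter on low counts only through TAM. P4hb had 1995, 1897 and 2011 CPM in TAM, against 459, 535, 592 and 548 CPM in BMDM_T and 429, 519, 450.0 and 357 CPM in BMDM_H. P4hb, the founding disulfide isomerase (chr11:120560298-120573253, minus strand), was 3.69-fold higher in TAM than in BMDM_T, with a log2 fold change of 1.88 ± 0.17 (adjusted p = 5.57e-09), and 4.47-fold higher than in BMDM_H, with 2.16 ± 0.17 (adjusted p = 1.07e-09). Pdia6 had 713, 726 and 841 CPM in TAM, against 177, 251, 259.8 and 244 CPM in BMDM_T and 142, 224, 227 and 179.6 CPM in BMDM_H. Pdia6, which also binds the stress sensor IRE1, had log2 fold changes of 1.70 ± 0.18 (adjusted p = 1.21e-07) over BMDM_T and 1.98 ± 0.19 (adjusted p = 2.28e-08) over BMDM_H. The last bases of Pdia6 lie opposite Atp6v1c2, and the strand setting of the counting is not given in the sources used here, so reads of the pair may be mixed.

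Pdia3, the isomerase that works with calreticulin and calnexin on glycoproteins, followed a graded pattern. Pdia3 had 173, 171 and 166 CPM in TAM, against 136, 79.0, 70.4 and 124 CPM in BMDM_T and 62.1, 57.1, 29.8 and 33.8 CPM in BMDM_H. The 3 groups did not overlap. TAM was higher than BMDM_T by 0.73 ± 0.22 (adjusted p = 0.00728) and higher than BMDM_H by 1.79 ± 0.24 (adjusted p = 2.33e-06) on the log2 scale. Pdia4 had 42.2, 23.9 and 22.8 CPM in TAM, against 15.1, 5.04, 9.24 and 9.02 CPM in BMDM_T and 7.96, 7.24, 9.30 and 15.6 CPM in BMDM_H. Pdia4, a larger isomerase, had log2 fold changes of 1.63 ± 0.34 (adjusted p = 0.000343) over BMDM_T and 1.69 ± 0.36 (adjusted p = 0.000499) over BMDM_H. Pdia5 averaged 13.1 ± 2.98 CPM in TAM, 9.34 ± 4.01 CPM in BMDM_T and 5.76 ± 1.16 CPM in BMDM_H, with log2 fold changes of 0.50 ± 0.34 (adjusted p = 0.21) over BMDM_T and 1.24 ± 0.39 (adjusted p = 0.00979) over BMDM_H. All marrow libraries except the highest BMDM_T library (15.3 CPM) lay under the filter level of 8.6 CPM for Pdia5, so its call counts for less.

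BiP, the ER HSP70 protein that holds unfolded chains and the stress sensors, varied widely among the TAM libraries. Hspa5 had 214, 145 and 382 CPM in TAM, against 42.0, 51.3, 61.2 and 49.6 CPM in BMDM_T and 38.2, 89.3, 89.3 and 148 CPM in BMDM_H (chr2:34771970-34777547, plus strand). TAM replicate 3 stood highest, and TAM replicate 2 fell just under the highest BMDM_H library. The log2 fold change was 2.29 ± 0.32 (adjusted p = 4.1e-06) over BMDM_T and 1.55 ± 0.32 (adjusted p = 0.000365) over BMDM_H. Without TAM replicate 3 the first was 1.80 (adjusted p = 2.87e-05). GRP94, the ER HSP90 protein that folds Toll-like receptors and integrins, was lowest among the TAM libraries in replicate 3. Hsp90b1 had 762, 679 and 544 CPM in TAM, against 291, 378, 306 and 312 CPM in BMDM_T and 216, 306, 272 and 242 CPM in BMDM_H. TAM did not overlap with marrow, and the log2 fold change was 1.04 ± 0.17 (adjusted p = 3.05e-05) over BMDM_T and 1.35 ± 0.17 (adjusted p = 1.58e-06) over BMDM_H. The end of the gene lies opposite 1810014B01Rik, so its reads too may be mixed.

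J-domain proteins are co-chaperones that start the ATPase cycle of HSP70 proteins, such as BiP in the ER lumen. The ER members were not sorted by the HSP70 protein they serve. Of 7 tested J-domain members of the ER, 4 were higher in TAM than in BMDM_T. Against BMDM_H, 3 were higher and 1 lower in TAM. The 4 called in each comparison were a share close to the 58.9% and 56.3% of all genes. Dnajb11 had 196, 155 and 165 CPM in TAM, against 107, 120.2, 88.9 and 103 CPM in BMDM_T and 103, 116, 76.2 and 96.3 CPM in BMDM_H. Dnajb11 was higher in TAM by 0.71 ± 0.16 (adjusted p = 0.000974) over BMDM_T and 0.79 ± 0.17 (adjusted p = 0.000544) over BMDM_H, and its end lies opposite the annotated antisense gene Gm30505. Dnajc3 had 25.0, 28.1 and 29.0 CPM in TAM, against 16.2, 16.8, 25.4 and 20.7 CPM in BMDM_T and 20.7, 25.7, 14.9 and 15.6 CPM in BMDM_H. Dnajc3, also known as p58IPK, overlapped between the groups at 0.48 ± 0.24 (adjusted p = 0.0949) and 0.43 ± 0.25 (adjusted p = 0.153), and was called over BMDM_T only with scaling by total counts alone (adjusted p = 0.039). Dnajb9 had 15.6, 13.8 and 21.7 CPM in TAM, against 15.1, 21.0, 19.6 and 17.1 CPM in BMDM_T and 21.5, 34.6, 53.9 and 28.6 CPM in BMDM_H. Dnajb9, a target of the transcription factor XBP1 that represses IRE1, did not differ from BMDM_T by the test (-0.07 ± 0.30, adjusted p = 0.856) and was lower in TAM than in BMDM_H (-0.94 ± 0.29, adjusted p = 0.00891), with overlapping libraries, a call lost without BMDM_H replicates 3 and 4 (adjusted p = 0.0644).

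Among the ER members outside the rule for named genes, Dnajc16 and Fkbp11 had the highest and the lowest fold change in TAM against BMDM_T. Dnajc16 had 15.6, 17.0 and 16.5 CPM in TAM, against 3.23, 1.68, 1.15 and 2.71 CPM in BMDM_T and 3.18, 8.04, 3.72 and 2.60 CPM in BMDM_H. Dnajc16, a J-domain protein of the ER membrane, was higher in TAM by 2.85 ± 0.43 (adjusted p = 8.22e-06) over BMDM_T and 1.73 ± 0.39 (adjusted p = 0.000732) over BMDM_H. All marrow libraries lay under the filter level of 8.6 CPM, so Dnajc16 passed the filter only through TAM. It had 9 counts over all BMDM_T libraries and 17 over all BMDM_H libraries, so the size of its fold changes is uncertain. Fkbp11 had 6.11, 2.65 and 1.81 CPM in TAM, against 11.8, 21.0, 12.7 and 15.3 CPM in BMDM_T and 7.16, 8.85, 9.30 and 15.6 CPM in BMDM_H. Fkbp11, a prolyl isomerase abundant in plasma cells and other secretory cells, was lower in TAM, with log2 fold changes of -2.23 ± 0.43 (adjusted p = 0.000133) and -1.51 ± 0.48 (adjusted p = 0.0099). A list of 7 measured B and plasma cell markers summed to 18.4 to 34.4 CPM in TAM, against 304 to 547 CPM in BMDM_T and 146 to 378 CPM in BMDM_H, with Jchain, Cd79a, Ms4a1 and Vpreb3 at 0 counts in TAM. Of the 5 tested markers, 4 were lower in TAM than in BMDM_T, while Sdc1 (syndecan-1) was higher, averaging 16.6 ± 9.71 CPM in TAM and 6.37 ± 2.78 CPM in BMDM_T (1.33 ± 0.46, adjusted p = 0.0171). The part of these cells in the Fkbp11 values was not tested. Fkbp2 had 315, 262 and 179.7 CPM in TAM, against 184, 182, 262 and 207 CPM in BMDM_T and 181, 169.7, 188 and 172 CPM in BMDM_H. Fkbp2, an ER prolyl isomerase among the core members, was not called against BMDM_T (0.27 ± 0.18, adjusted p = 0.217) and was higher in TAM than in BMDM_H (0.50 ± 0.19, adjusted p = 0.0286), with overlap through TAM replicate 3. That call was lost without TAM replicate 1 or 2 or without BMDM_H replicate 1, 2, 4, or 3 and 4 together (adjusted p up to 0.195), and without TAM replicate 3 Fkbp2 was called over BMDM_T (adjusted p = 0.0408).

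**Figure D3:**
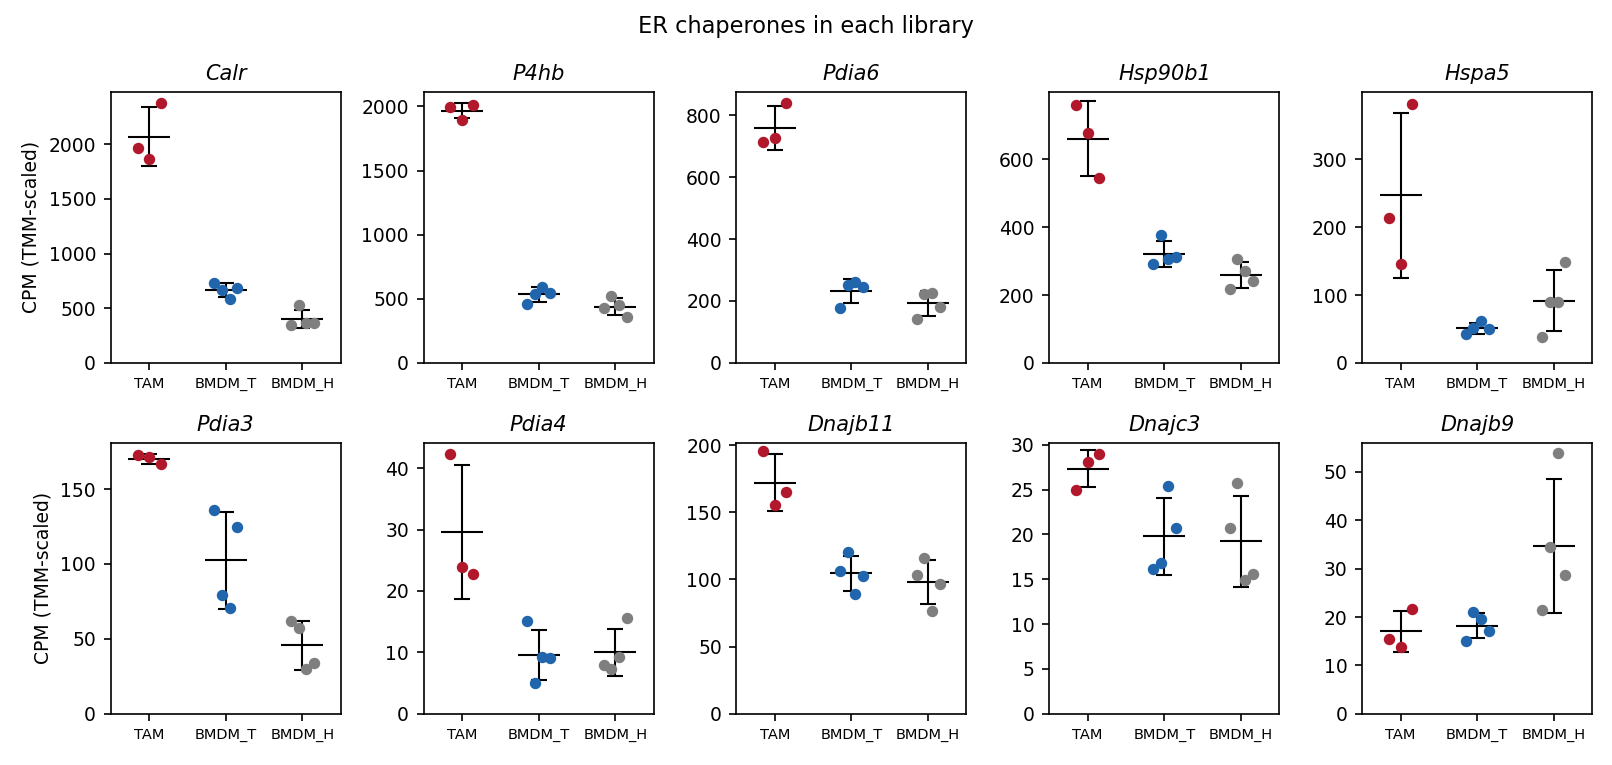
TMM-scaled CPM (y axis) of 10 ER members in each library of TAM, BMDM_T and BMDM_H (x axis). Points are libraries, long lines means and error bars the SD. Calr, P4hb, Pdia6, Hsp90b1 and Pdia3 separate TAM from both marrow groups, whereas Dnajb9 is highest in BMDM_H, at 34.7 ± 13.9 CPM.

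Cytosolic members were also higher in TAM more often than lower. Of 38 tested, 18 were higher and 4 lower in TAM than in BMDM_T (57.9% called, against 58.9% of all genes), and 19 were higher and 2 lower in TAM than in BMDM_H (55.3% called, against 56.3%). Their median log2 fold changes were 0.56 and 0.68, beside 0.72 and 1.24 for the ER members, a difference that was not tested. HSP90 beta, the constitutive cytosolic HSP90 that matures kinases and steroid receptors, was higher in TAM. Hsp90ab1 had 1664, 1384 and 1076 CPM in TAM, against 663, 880.0, 862 and 973 CPM in BMDM_T and 638, 732, 749 and 783 CPM in BMDM_H. The lowest TAM library lay above the highest marrow library. Its log2 fold change was 0.70 ± 0.18 (adjusted p = 0.00235) over BMDM_T and 0.92 ± 0.18 (adjusted p = 0.000226) over BMDM_H. Hsp90aa1, its inducible counterpart, had 6.30 ± 2.41 CPM in TAM, 4.30 ± 2.51 CPM in BMDM_T and 3.92 ± 2.38 CPM in BMDM_H and was not tested.

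The inducible HSP70 gene Hspa1b had the largest fold change of the 71 tested members in each comparison of TAM with marrow. Hspa1b had 119, 277 and 194 CPM in TAM, against 5.38, 19.3, 18.5 and 3.61 CPM in BMDM_T and 5.57, 15.3, 16.7 and 10.4 CPM in BMDM_H (chr17:34956436-34959238, minus strand). The log2 fold change was 4.06 ± 0.37 (adjusted p = 1.04e-08) over BMDM_T, a 16.7-fold difference, and 4.08 ± 0.39 (adjusted p = 2.61e-08) over BMDM_H. Hspa1b has a near-identical neighbouring copy, and how reads shared between the copies were counted is not given in the sources used here, so its level is uncertain. Hspa8 encodes the constitutive HSP70 protein. Hspa8 had 61.7, 87.5 and 82.5 CPM in TAM, against 35.5, 60.5, 77.3 and 37.0 CPM in BMDM_T and 45.4, 45.0, 72.5 and 2.60 CPM in BMDM_H. It overlapped between the groups and was not called, at 0.56 ± 0.34 (adjusted p = 0.158) over BMDM_T and 0.82 ± 0.35 (adjusted p = 0.0532) over BMDM_H, where other settings did call it (adjusted p = 0.0224 without BMDM_H replicate 3, whose value was the highest of its group).

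Other heat-inducible genes gave varied fold changes. Dnajb1 had 25.0, 31.8 and 54.6 CPM in TAM, against 47.4, 58.8, 35.8 and 45.1 CPM in BMDM_T and 46.2, 51.5, 57.6 and 18.2 CPM in BMDM_H. Dnajb1, the J-domain partner of inducible HSP70, overlapped between the groups, at -0.30 ± 0.28 (adjusted p = 0.362) over BMDM_T and -0.25 ± 0.29 (adjusted p = 0.481) over BMDM_H, and without TAM replicate 3 it was lower in TAM than in BMDM_T (-0.74, adjusted p = 0.0364). Hsph1 had 67.8, 54.6 and 41.9 CPM in TAM, against 21.5, 54.6, 38.1 and 46.9 CPM in BMDM_T and 7.96, 21.7, 20.5 and 26.0 CPM in BMDM_H. Hsph1, an HSP110 nucleotide exchange factor of HSP70, was not called against BMDM_T (0.41 ± 0.28, adjusted p = 0.224) and was higher in TAM than in BMDM_H (1.62 ± 0.33, adjusted p = 0.000337). Bag3 had 38.9, 31.8 and 31.0 CPM in TAM, against 8.61, 6.72, 2.31 and 10.8 CPM in BMDM_T and 13.5, 12.1, 20.5 and 15.6 CPM in BMDM_H. Bag3, which links HSP70 to selective autophagy, did not overlap with marrow and was 4.59-fold higher in TAM than in BMDM_T (2.20 ± 0.31, adjusted p = 4.78e-06) and 2.29-fold higher than in BMDM_H (1.20 ± 0.30, adjusted p = 0.00185). The 3 small heat shock protein genes were below the filter, and Hspb1 had 7.78, 7.43 and 2.07 CPM in TAM, against 2 counts over all BMDM_T libraries and 2 over all BMDM_H libraries.

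Beside these genes, a list of 15 immediate early genes, known to be raised by stimulation and by tissue dissociation, summed to 11095 to 12037 CPM in TAM, against 4575 to 7557 CPM in BMDM_T and 6095 to 7510.3 CPM in BMDM_H. Of the 15, 10 were higher and 3 lower in TAM than in BMDM_T, where 30.1% of all genes were higher and 28.7% lower. Log2 fold changes were 4.83 ± 0.26 for Fosb and 4.70 ± 0.28 for Atf3 among the higher genes, and -1.70 ± 0.21 for Ier2, -1.19 ± 0.40 for Egr1 and -0.37 ± 0.15 for Klf6, the 3 lower ones. Their part in the values of Hspa1b and Bag3 was not tested. Hsf1, the heat shock factor, was higher in TAM than in BMDM_T by 0.61 ± 0.25 (adjusted p = 0.0414) and was not called against BMDM_H (0.29 ± 0.25, adjusted p = 0.337).

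The chaperonin CCT, whose ring of 8 subunits folds actin, tubulin and WD-repeat proteins, was higher in TAM for most subunits. Summed over the 8 genes it reached 1814 ± 69.8 CPM in TAM, 1131 ± 128 CPM in BMDM_T and 1099 ± 109 CPM in BMDM_H. Of the 8 subunits, 6 were higher in TAM than in BMDM_T and 7 than in BMDM_H, where 30.1% and 28.0% of all genes were higher. Cct3 had 348, 310.3 and 276 CPM in TAM, against 106, 124, 126 and 139.8 CPM in BMDM_T and 74.8, 125, 141 and 130.1 CPM in BMDM_H. Cct3 had the largest fold change of the 8, 1.33 ± 0.18 (adjusted p = 3.61e-06) over BMDM_T and 1.43 ± 0.19 (adjusted p = 2.28e-06) over BMDM_H, without overlap. Cct2 had 226, 279 and 316 CPM in TAM, against 109.8, 163, 158 and 159.7 CPM in BMDM_T and 140.1, 169.7, 169 and 138 CPM in BMDM_H. Cct2 was likewise apart, at 0.89 ± 0.17 (adjusted p = 0.000163) and 0.83 ± 0.17 (adjusted p = 0.000452). Cct5 averaged 247 ± 62.8 CPM in TAM, 124 ± 4.97 CPM in BMDM_T and 141 ± 10.9 CPM in BMDM_H, without overlap of TAM and marrow libraries. Cct5 was higher by 1.00 ± 0.17 (adjusted p = 3.15e-05) and 0.82 ± 0.17 (adjusted p = 0.000361).

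The other subunits showed how far the ring's genes spread. Log2 fold changes over BMDM_T were 1.11 ± 0.18 (adjusted p = 2.56e-05) for Cct6a and 0.87 ± 0.24 (adjusted p = 0.00451) for Cct4. Cct8 had 194, 169 and 200.1 CPM in TAM, against 88.3, 161, 126 and 135 CPM in BMDM_T and 75.6, 130.3, 162 and 130.1 CPM in BMDM_H. Cct8, whose end lies opposite Usp16, was called at 0.55 ± 0.21 (adjusted p = 0.0315) over BMDM_T and 0.62 ± 0.22 (adjusted p = 0.0196) over BMDM_H, calls that were lost without BMDM_T replicate 1, 3 or 4 or TAM replicate 1 or 3 in the first comparison (adjusted p up to 0.12), and without BMDM_H replicate 1 or TAM replicate 3 in the second (up to 0.0989). Tcp1 had 112, 102 and 98.5 CPM in TAM, against 66.8, 119, 65.8 and 49.6 CPM in BMDM_T and 69.2, 71.6, 70.7 and 49.4 CPM in BMDM_H. Tcp1, whose end lies opposite Acat3, overlapped with BMDM_T through 1 BMDM_T library of 119 CPM (0.46 ± 0.22, adjusted p = 0.081), was called without that library (adjusted p = 0.00159), with scaling by total counts alone (0.0302) and with limma-voom (0.0447), and was higher than in BMDM_H (0.64 ± 0.23, adjusted p = 0.0215), a call lost without BMDM_H replicate 4, TAM replicate 1, or BMDM_H replicates 3 and 4 together (adjusted p = 0.0577, 0.0564 and 0.105). Cct7 had 477, 420.1 and 369.7 CPM in TAM, against 331, 371, 426 and 479 CPM in BMDM_T and 319, 328, 340.3 and 432 CPM in BMDM_H. Cct7 overlapped throughout, at 0.07 ± 0.17 (adjusted p = 0.744) and 0.26 ± 0.17 (adjusted p = 0.216), so fold changes over BMDM_T ran from 0.07 to 1.33 across the subunits of 1 ring.

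**Figure D4:**
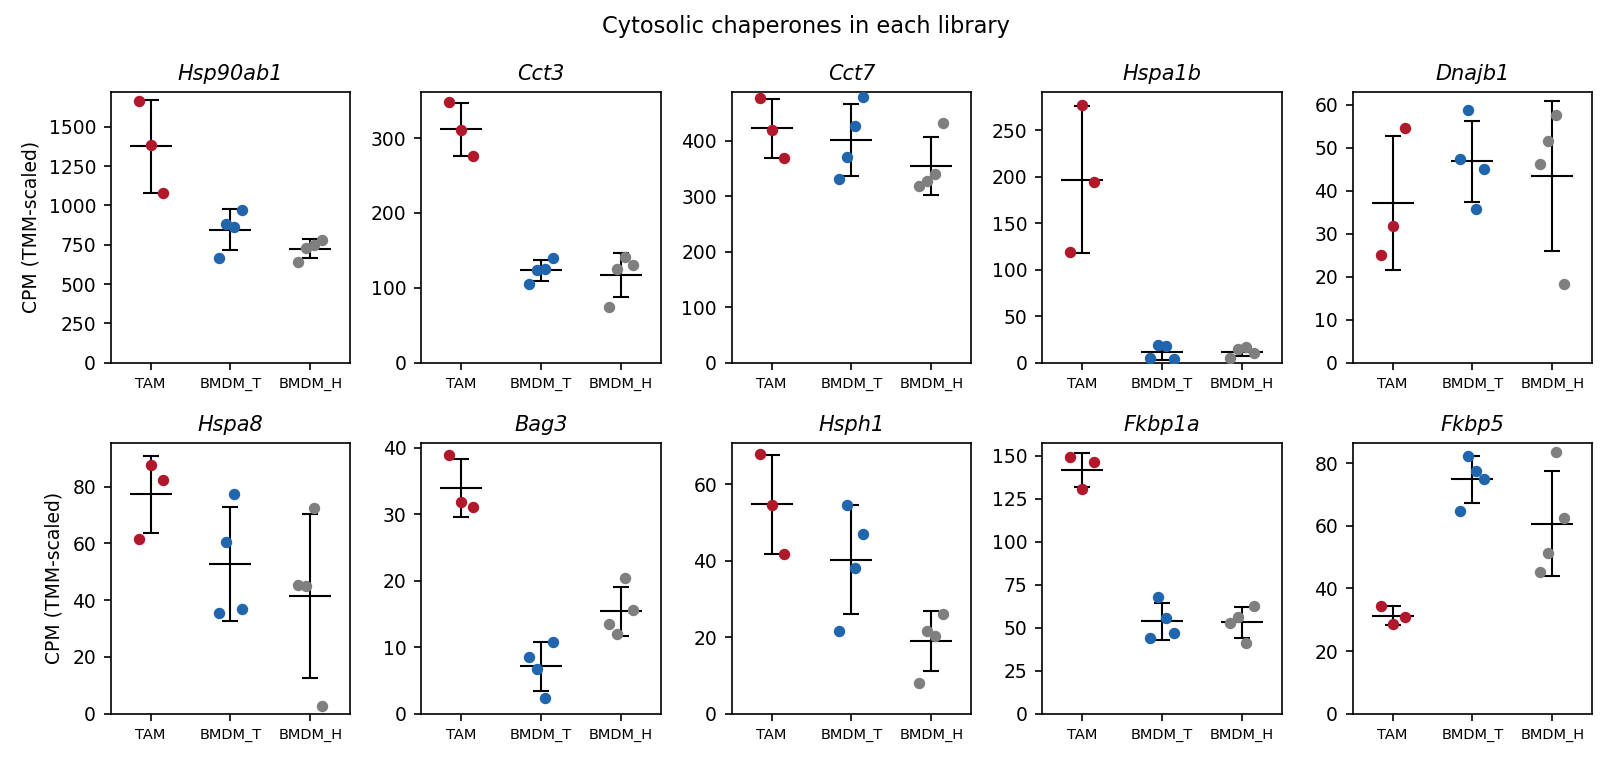
TMM-scaled CPM (y axis) of 10 cytosolic members in each library of TAM, BMDM_T and BMDM_H (x axis). Points are libraries, long lines means and error bars the SD. Hspa1b, Cct3, Fkbp1a and Bag3 are higher in all TAM libraries, Cct7, Dnajb1 and Hspa8 overlap, and Fkbp5 is lower in all TAM libraries, at 31.4 ± 2.92 CPM.

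Immunophilins and J-domain proteins of the cytosol gave both directions. Fkbp1a had 149, 130.5 and 146 CPM in TAM, against 44.1, 68.1, 55.4 and 46.9 CPM in BMDM_T and 52.5, 56.3, 40.9 and 62.5 CPM in BMDM_H. Fkbp1a encodes FKBP12, the receptor of tacrolimus and rapamycin, and was higher in TAM by 1.40 ± 0.18 (adjusted p = 1.04e-06) over BMDM_T and 1.42 ± 0.18 (adjusted p = 1.55e-06) over BMDM_H. Fkbp5 had 34.4, 28.6 and 31.0 CPM in TAM, against 64.6, 82.4, 77.3 and 74.9 CPM in BMDM_T and 45.4, 51.5, 83.7 and 62.5 CPM in BMDM_H. Fkbp5 encodes FKBP51, an HSP90 co-chaperone induced by glucocorticoids, and was lower in TAM, with -1.26 ± 0.20 (adjusted p = 2.43e-05) and -0.90 ± 0.21 (adjusted p = 0.00132), without overlap. Its relative Fkbp4 (FKBP52), which favours steroid receptor activity, averaged 169 ± 16.4 CPM in TAM, 169 ± 28.3 CPM in BMDM_T and 164 ± 55.4 CPM in BMDM_H, and its fold change over BMDM_T was 0.01 ± 0.21 (adjusted p = 0.986).

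The J-domain genes of the cytosol and nucleus with lower levels in TAM were Dnajc7, a co-chaperone of HSP90 and HSP70, and Dnajc9, a histone chaperone. Dnajc7 had 184, 195 and 153 CPM in TAM, against 331, 338, 279 and 274 CPM in BMDM_T and 193, 224, 273 and 237 CPM in BMDM_H. The log2 fold change was -0.79 ± 0.16 (adjusted p = 0.000388) over BMDM_T and -0.38 ± 0.17 (adjusted p = 0.0594) over BMDM_H (adjusted p = 0.0301 without BMDM_H replicate 1), and the end of the gene lies opposite Cnp. Dnajc9 had 41.7, 45.1 and 42.4 CPM in TAM, against 71.1, 85.7, 88.9 and 90.2 CPM in BMDM_T and 54.9, 86.9, 94.8 and 88.5 CPM in BMDM_H. All TAM libraries lay below all marrow libraries, with log2 fold changes of -0.96 ± 0.19 (adjusted p = 0.000219) and -0.88 ± 0.20 (adjusted p = 0.000745). Among the nucleotide exchange factors, Hspa4, an HSP110 protein, averaged 21.7 ± 1.39 CPM in TAM, 10.2 ± 3.58 CPM in BMDM_T and 14.4 ± 7.30 CPM in BMDM_H. It was higher than in BMDM_T by 1.10 ± 0.34 (adjusted p = 0.00967) and not called against BMDM_H (0.77 ± 0.35, adjusted p = 0.0664). Against BMDM_H it was called without BMDM_H replicate 4 (adjusted p = 0.0259) or replicates 3 and 4 together (0.0237), with limma-voom (0.0246) and with the replicate block (0.0277).

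Among mitochondrial members, the chaperonin pair and mortalin were higher in TAM in both comparisons. Of the 5 J-domain proteins, 4 were higher in TAM than in BMDM_T and 2 than in BMDM_H. Over all genes, 30.1% and 28.0% were higher. Of the 8, all tested, 7 were called against BMDM_T (87.5%, against 58.9% of all genes) and 5 against BMDM_H (62.5%, against 56.3%), each of them higher in TAM. Hspd1 had 166, 148 and 164 CPM in TAM, against 59.2, 108, 80.8 and 73.1 CPM in BMDM_T and 47.0, 85.3, 63.2 and 85.9 CPM in BMDM_H. Hspe1 had 243, 267 and 325 CPM in TAM, against 84.0, 169, 136 and 101 CPM in BMDM_T and 77.2, 98.1, 123 and 115 CPM in BMDM_H. TAM did not overlap with marrow for either gene. HSP60 (Hspd1) was higher in TAM by 0.98 ± 0.20 (adjusted p = 0.000353) over BMDM_T and 1.21 ± 0.21 (adjusted p = 7.19e-05) over BMDM_H, and its lid HSP10 (Hspe1) by 1.18 ± 0.21 (adjusted p = 5.84e-05) and 1.47 ± 0.22 (adjusted p = 8.13e-06). The 2 genes lie head to head on chromosome 1, at chr1:55077835-55088243 on the minus strand and chr1:55088132-55091307 on the plus strand, with 112 bases annotated to both genes, and share the promoter element printed above. The pair is therefore not 2 independent members.

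Hspa9 had 127, 147 and 176 CPM in TAM, against 37.7, 66.4, 43.9 and 36.1 CPM in BMDM_T and 30.2, 51.5, 63.2 and 59.9 CPM in BMDM_H. Mortalin, the HSP70 motor of protein import, was higher in TAM by 1.70 ± 0.23 (adjusted p = 2.4e-06) over BMDM_T and 1.62 ± 0.24 (adjusted p = 7.75e-06) over BMDM_H, without overlap. Dnaja3 had 42.8, 41.9 and 39.8 CPM in TAM, against 22.6, 15.1, 32.3 and 21.6 CPM in BMDM_T and 10.3, 20.9, 29.8 and 26.0 CPM in BMDM_H. Dnaja3 (TID1), the J-domain partner of mortalin, was higher by 0.87 ± 0.27 (adjusted p = 0.00969) and 1.05 ± 0.29 (adjusted p = 0.00469). Dnajc19 had 24.4, 33.9 and 52.0 CPM in TAM, against 12.9, 21.0, 13.9 and 7.22 CPM in BMDM_T and 13.5, 25.7, 20.5 and 15.6 CPM in BMDM_H. Dnajc19 (TIM14), which stimulates mortalin at the import channel, was higher by 1.43 ± 0.32 (adjusted p = 0.000766) over BMDM_T and 0.97 ± 0.32 (adjusted p = 0.0152) over BMDM_H, the second call being lost without TAM replicate 3 (adjusted p = 0.142), BMDM_H replicate 1 (0.0759), or BMDM_H replicates 3 and 4 (0.0615), and its end lies opposite Fxr1. Dnajc15 had 31.1, 24.9 and 27.7 CPM in TAM, against 12.9, 14.3, 21.9 and 9.92 CPM in BMDM_T and 32.6, 21.7, 29.8 and 10.4 CPM in BMDM_H. Dnajc15, a Dnajc19 relative, was higher than in BMDM_T (0.93 ± 0.30, adjusted p = 0.0103) and overlapped with BMDM_H (0.16 ± 0.29, adjusted p = 0.663), while Dnajc30, a J-domain protein of the inner membrane, had -0.16 ± 0.27 (adjusted p = 0.627) and -0.38 ± 0.27 (adjusted p = 0.239).

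**Figure D5:**
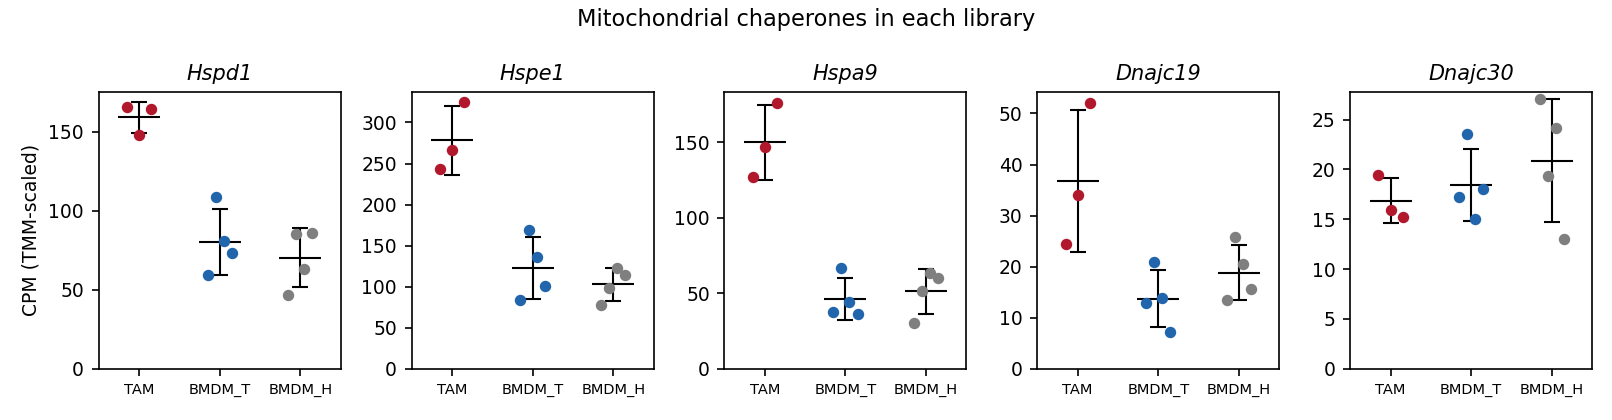
TMM-scaled CPM (y axis) of 5 mitochondrial members in each library of TAM, BMDM_T and BMDM_H (x axis). Points are libraries, long lines means and error bars the SD. Hspd1, Hspe1 and Hspa9 lie higher in all TAM libraries than in all marrow libraries, and Dnajc30 overlaps.

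Of the 7 tested members at other or unassigned sites, 2 were higher and 1 lower in TAM than in BMDM_T, and 1 was higher and 2 lower in TAM than in BMDM_H, so that 3 of 7 were called in each, where 58.9% and 56.3% of all genes were called. Dnajc5 had 113, 107 and 113 CPM in TAM, against 173, 213, 177 and 149.7 CPM in BMDM_T and 186, 142, 139 and 213 CPM in BMDM_H. Dnajc5 encodes the cysteine-string protein of secretory vesicles, and it was lower in TAM, with -0.68 ± 0.17 (adjusted p = 0.00217) over BMDM_T and -0.60 ± 0.18 (adjusted p = 0.00668) over BMDM_H, without overlap. Dnajc13 averaged 34.5 ± 4.52 CPM in TAM, 24.3 ± 2.07 CPM in BMDM_T and 23.1 ± 5.16 CPM in BMDM_H. Dnajc13, an endosomal J-domain protein, was higher than in BMDM_T by 0.52 ± 0.22 (adjusted p = 0.0468), a call lost without any 1 BMDM_T library, without TAM replicate 2 or 3 and without BMDM_H replicate 1, 2 or 3 (adjusted p up to 0.187), and also with DESeq2 (0.0944), with no low-count filter (0.0828), with only the 2 groups fitted (0.071) and with the replicate block (0.114). It had 0.52 ± 0.23 (adjusted p = 0.0559) over BMDM_H, and was called there with scaling by total counts alone (adjusted p = 0.0458) and without TAM replicate 1 (0.0445).

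Genes that work with the members were higher in TAM in part. Of 15 tested partners in the ER, 9 were higher in TAM than in BMDM_T and 14 than in BMDM_H, where 30.1% and 28.0% of all genes were higher. Their median log2 fold changes were 0.61 and 0.88, against 0.03 and 0.02 over all tested genes. Sil1, the exchange factor of BiP, averaged 55.4 ± 11.5 CPM in TAM, 17.4 ± 1.10 CPM in BMDM_T and 13.4 ± 7.53 CPM in BMDM_H, with a log2 fold change of 1.66 ± 0.27 (adjusted p = 2.1e-05) over BMDM_T. Creld2, an ER stress-inducible protein, had 1.33 ± 0.23 (adjusted p = 4.04e-05), and Prkcsh, the beta subunit of glucosidase II that trims sugars for calreticulin and calnexin, 1.00 ± 0.15 (adjusted p = 1.42e-05).

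The list of the unfolded protein response and ER-associated degradation gave mixed directions, with 3 higher and 3 lower of 18 tested in TAM against BMDM_T, and 5 higher and 2 lower against BMDM_H. These 6 and 7 of 18 called compare with 58.9% and 56.3% of all genes. Ppp1r15a averaged 338 ± 15.1 CPM in TAM and 124 ± 26.1 CPM in BMDM_T, and Ppp1r15a, also known as GADD34, was higher by 1.44 ± 0.20 (adjusted p = 3.79e-06). Herpud1 averaged 202 ± 26.5 CPM in TAM and 106 ± 26.5 CPM in BMDM_T, and this degradation component was higher by 0.94 ± 0.19 (adjusted p = 0.000214). Xbp1, a transcription factor of the response, was higher by 0.51 ± 0.20 (adjusted p = 0.032), a measure of total transcript that does not see its splicing. Lower in TAM were Ppp1r15b, the constitutive relative of Ppp1r15a (-1.08 ± 0.17, adjusted p = 1.48e-05), Edem2, a mannose-trimming protein (-0.72 ± 0.17, adjusted p = 0.00105), and Eif2ak3, the sensor PERK (-1.15 ± 0.35, adjusted p = 0.00703). Ddit3, which encodes the transcription factor CHOP, had 0.24 ± 0.18 (adjusted p = 0.272) over BMDM_T and 1.12 ± 0.20 (adjusted p = 8.63e-05) over BMDM_H.

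In the cytosol, 6 of 19 tested partners were higher in TAM than in BMDM_T and 4 than in BMDM_H, shares near or below the 30.1% and 28.0% of all genes that were higher. In either comparison 0 were lower, where 28.7% and 28.3% of all genes were lower. The median log2 fold changes of these partners were 0.42 and 0.44, against 0.03 and 0.02 over all tested genes. The higher ones included St13 (HIP), an HSP70 co-chaperone, at 1.50 ± 0.26 (adjusted p = 4.44e-05) over BMDM_T, Cdc37, which brings kinases to HSP90, at 0.76 ± 0.20 (adjusted p = 0.00243), and the prefoldin subunit Pfdn1, at 0.64 ± 0.16 (adjusted p = 0.00236). In the mitochondrion, 3 of 13 tested partners were higher in TAM than in BMDM_T and 4 than in BMDM_H, again near or below the shares of all genes that were higher. Here too 0 were lower in either comparison, and the medians were 0.31 and 0.43. The higher ones included the mitochondrial HSP90 gene Trap1 (1.17 ± 0.25, adjusted p = 0.000437 over BMDM_T), the iron-sulfur co-chaperone Hscb (1.23 ± 0.30, adjusted p = 0.00149) and the protease subunit Afg3l2 (1.14 ± 0.19, adjusted p = 4.34e-05).

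Between marrow cells of tumor-bearing and healthy mice few members differed. BMDM_T against BMDM_H gave 3 of 71 tested members called, each higher in BMDM_T (4.23%, against 4.82% of all genes, 2.82% higher and 2.00% lower). They were the ER lectin Calr, its partner isomerase Pdia3 and the cytosolic exchange factor Hsph1. Calr, with the libraries given above, averaged 666 ± 60.9 CPM in BMDM_T and 401 ± 86.1 CPM in BMDM_H, a 1.65-fold difference without overlap (0.72 ± 0.17, adjusted p = 0.0139). Pdia3 averaged 102 ± 32.5 CPM in BMDM_T and 45.7 ± 16.3 CPM in BMDM_H, a 2.09-fold difference without overlap (1.06 ± 0.24, adjusted p = 0.0104). Hsph1 averaged 40.3 ± 14.2 CPM in BMDM_T and 19.0 ± 7.76 CPM in BMDM_H, with overlapping libraries (1.21 ± 0.34, adjusted p = 0.0411).

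The calls of Calr and Hsph1 rested on few libraries, while Pdia3 lost its call only without BMDM_H replicates 3 and 4 together. Without BMDM_H replicates 3 and 4, the shallowest libraries, adjusted p was 0.168 for Calr, 0.122 for Pdia3 and 0.075 for Hsph1. Calr was also lost without BMDM_H replicate 1 or 3 (adjusted p = 0.0538 and 0.0544), and Hsph1 without BMDM_T replicate 2, 3 or 4 or BMDM_H replicate 1, 2 or 3 (adjusted p up to 0.156) and with limma-voom (0.0633). Scaling by total counts alone gave adjusted p = 0.0563 for Calr and 0.0791 for Hsph1, and over all genes 155 higher and 218 lower calls in place of 212 and 150, with the median of all genes at -0.12. Other core ER members were not called, such as P4hb (0.28 ± 0.16, adjusted p = 0.385), Hsp90b1 (0.31 ± 0.17, adjusted p = 0.346) and Hspa5 (-0.74 ± 0.34, adjusted p = 0.251). Dnajb9 was lower in every BMDM_T library than in every BMDM_H library, with means of 18.2 ± 2.64 CPM in BMDM_T and 34.7 ± 13.9 CPM in BMDM_H, but was not called (-0.87 ± 0.29, adjusted p = 0.0942) except without BMDM_H replicate 1 (adjusted p = 0.0425).

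None of the 8 mitochondrial members was called in BMDM_T against BMDM_H by edgeR, with 1 at an unadjusted p under 0.05, and DESeq2 and limma-voom called 0. In the stress response list Ddit3, given above, was higher in BMDM_T by 0.89 ± 0.20 (adjusted p = 0.0115), and Edem2 by 0.74 ± 0.16 (adjusted p = 0.00875). Beside these values, 6 erythroid markers summed to 6.31 to 21.9 CPM in BMDM_T, against 54.9 to 271 CPM in BMDM_H, and the B and plasma cell markers to 304 to 547 CPM in BMDM_T, against 146 to 378 CPM in BMDM_H, with 2 of 5 tested markers higher in BMDM_T. Of 10 neutrophil markers, 4 (Mpo, Elane, Prtn3 and Cxcr2) were higher in BMDM_T and 0 lower. Prtn3 averaged 5563 ± 1228 CPM in BMDM_T and 1338 ± 151 CPM in BMDM_H. Lower in BMDM_T were 4 of 8 macrophage and 4 of 5 tested monocyte markers, with 0 higher. Over all genes 2.82% were higher and 2.00% lower. The part of these cell types in the calls of Calr and Pdia3 was not tested.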

How the data were processed

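The authors deposited raw counts per gene in 1 table of 24421 rows, of which 10207 carry a symbol. The tools named in the submitters' processing notes are bcl2fastq, STAR 2.4.2a and HTSeq, and the build is mm10. The sources used here do not state whether molecular identifiers were collapsed, nor the annotation, strand setting or gene filter. Batch 2, made of BMDM_H replicates 5 to 8 and the 2 MGM libraries, was not used for genes, because their rows are in another order than the symbols: Spearman correlations with batch 1 libraries ran from -0.02 to 0.0 in 66 pairs, against 0.92 to 0.96 within batch 1 BMDM_H.

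The deposited counts of the 11 batch 1 libraries were fitted together with edgeR 4.0.16 in R 4.3.3 (filterByExpr, TMM, estimateDisp, glmQLFit, glmQLFTest, no covariate), 7518 genes passing a filter of 10 counts at the median library (8.6 CPM). SE is the unshrunken log2 fold change over the root of its F statistic. The scripts were tested on simulated data. Totals of 387940 to 3747929 counts set the precision. Replicate pairs differed by chi-square per degree of freedom of 2.67 to 14.6, so each library counted as 1 sample.

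Alternatives were scaling (RLE factors, total counts), no filter, DESeq2 1.42.0, limma-voom 3.58.1, the 2 groups compared alone, a replicate block, and leaving out each library or BMDM_H replicates 3 and 4. Deviations of libraries sharing a replicate number correlated at 0.22, 0.24, 0.13 and 0.13 between BMDM_T and BMDM_H, each above the limit of 0.1. Between TAM and marrow these correlations ran from -0.05 to 0.08. The labels name no pairs of tumor-bearing and healthy mice, and such correlations cannot establish them. The main fit therefore had no pairing, and the replicate block was an alternative only.

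Members, compartments, lists and the rule for named genes were chosen with earlier results of these data known. The rule named core members with a row and, per comparison and compartment, up to 4 called members in each direction with the largest changes, a mean of 30 CPM or more in the higher group and no overlap of libraries, up to 3 members at other sites, and up to 3 called genes per pathway list and direction. The core member Dnaja1 was not analysed here. One marker of the B and plasma cell list is not reported here and was left out of its sums. The other CCT subunits, Dnajc16, Fkbp11, Pdia5, Dnajc30, Hspb1, Hsf1, Ddit3, the single marker genes and 3 lower immediate early genes were named after their values were seen. Gene coordinates and overlaps come from GENCODE on mm10, and promoter windows from RefSeq on GRCm38.p6.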

Additional observations from a re-analysis of the deposited data

Results flagged for a closer look

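Of 76 groups of 4 libraries checked among 38 named members, 3 had a library whose gap to the nearest other library, divided by the range, was above Dixon's limit for 4 values, where chance flags about 1 in 20. Tcp1 had 49.4 CPM in BMDM_H replicate 4, against 69.2 to 71.6 CPM in the other BMDM_H libraries. Cct2 had 110 CPM in BMDM_T replicate 1, against 158 to 163 CPM in the others. Calr had 530 CPM in BMDM_H replicate 2, against 348 to 367 CPM in the others, and that library lay nearest to the BMDM_T libraries of 584 to 729 CPM.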

How the results depend on the processing

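No named member changed direction among its calls under any alternative run. In BMDM_T against BMDM_H, 2 ER members were called, but 1 with scaling by total counts alone and 0 without BMDM_H replicates 3 and 4, with 1 to 2 when single libraries were left out. There 1 cytosolic member was called, but 0 with scaling by total counts alone, 0 with limma-voom and 0 without BMDM_H replicates 3 and 4, with 0 to 1 when single libraries were left out, and the mitochondrial count was 0 throughout. In TAM against BMDM_T, leaving out single libraries gave 11 to 13 ER, 19 to 25 cytosolic and 6 to 7 mitochondrial members called, and in TAM against BMDM_H 13 to 15, 19 to 22 and 4 to 6. The count of ER members in TAM against BMDM_H was lowest without BMDM_H replicates 3 and 4, at 11. With the replicate block the comparison of BMDM_T with BMDM_H kept its 2 ER members and 1 cytosolic member. The replicate block called 12 ER, 23 cytosolic and 7 mitochondrial members in TAM against BMDM_T, and 15, 23 and 6 in TAM against BMDM_H. Of values of single named members compared across alternatives, 24 of 703 crossed the threshold in TAM against BMDM_T, 32 of 703 in TAM against BMDM_H and 15 of 702 in BMDM_T against BMDM_H. The fold change of Canx in TAM over BMDM_T was 3.23 and reached 5.11 with limma-voom, where 1 BMDM_T library had 0 counts. The lowest library of 387940 counts limits members under the filter level.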

Other observations

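Several J-domain and exchange factor genes outside the rule for named genes also differed, and their values were seen before they were chosen. Hspbp1, an exchange factor of HSP70, averaged 79.8 CPM in TAM, 40.8 CPM in BMDM_T and 31.8 CPM in BMDM_H, with log2 fold changes of 0.94 over BMDM_T and 1.31 over BMDM_H (adjusted p = 0.00209 and 0.000219). Dnajb6, which keeps aggregation-prone proteins soluble, averaged 40.5 CPM in TAM, 19.6 CPM in BMDM_T and 22.7 CPM in BMDM_H, with 1.03 and 0.88 (adjusted p = 0.00104 and 0.0053), and its promoter holds a heat shock element. Dnajc10, an ER disulfide reductase, averaged 69.6 CPM in TAM, 47.5 CPM in BMDM_T and 39.8 CPM in BMDM_H, with 0.55 and 0.76 (adjusted p = 0.0198 and 0.00334). Hspa4l, an HSP110 protein, was lower in TAM than in BMDM_T, at -0.88 (adjusted p = 0.0412). Members near or at equal levels included Bag6, at 163 CPM in TAM, 183 CPM in BMDM_T and 174 CPM in BMDM_H, and Hspa14, at 92.8 CPM in TAM, 87.9 CPM in BMDM_T and 80.9 CPM in BMDM_H, neither of them called.

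The 16 members below the filter were Bag2, Bag4, Dnaja4, Dnajb4, Dnajc27, Hsp90aa1, Hspa2, Hspb1, Hspb6 and Hspb8 in the cytosol, Dnajc1, Dnajc18, Fkbp7, Fkbp9 and Hspa13 in the ER, and Dnajc28. Hspa2 had 23 counts over the TAM libraries, 36 over the BMDM_T libraries and 8 over the BMDM_H libraries. Dnajc28 had 0 counts in TAM, against 10 in BMDM_T and 8 in BMDM_H, and a count of 0 allows up to 3 counts by counting error.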
